A study of Mus musculus with 3 samples.

Results

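The nuclear genes of oxidative phosphorylation were followed in single mouse spleen cells enriched for dendritic cells (DCs). Members were all gene features whose symbol starts with Nduf, Sdh, Uqcr, Cox4, Cox5, Cox6, Cox7, Cox8 or Atp5, leaving out symbols that hold -ps. This gave 97 features of 31053, under 96 symbols, because Atp5o is listed under 2 gene identifiers. The rule used names only and no measured value, but the choice of this group and of the gene lists beside it was made with earlier results of these data known. All 97 have a position in the GENCODE vM21 annotation of GRCm38.

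Oxidative phosphorylation makes ATP in the inner mitochondrial membrane. Complex I (the Nduf subunits) and complex II (Sdha to Sdhd) feed electrons into the chain, complex III (Uqcr) passes them to cytochrome c, complex IV (Cox, cytochrome c oxidase) gives them to oxygen, and complex V (Atp5, ATP synthase) uses the resulting proton gradient. Most subunits are encoded in the nucleus and a small core is encoded in mitochondrial DNA. Some complex IV subunits exist as isoforms from separate genes: Cox6a1 is the widely expressed form and Cox6a2 the form best known from heart and skeletal muscle, Cox6b2 is best known from testis, and Cox7a1 from heart and muscle. Plasmacytoid DCs (pDCs) are the DCs known for making large amounts of type I interferon, conventional DCs type 1 (cDC1) and type 2 (cDC2) take up and present antigen to T cells, and mature DCs are activated, migrating forms that have reduced antigen uptake.

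The cells came from spleens of C57BL/6 mice that carried leukemia or did not (WT). Mice received vehicle or panobinostat, an inhibitor of histone deacetylases, for 2 days, at a dose the labels do not give. Per the hashtag names, 6 samples were marked with antibody hashtags and pooled into 1 capture with 10x 3' v3 chemistry: 2 of leukemia with panobinostat and 2 of leukemia with vehicle, and 1 each of WT with panobinostat and WT with vehicle. Splenocytes from leukemic animals had been separated on a density gradient, sorted for cells without GFP and enriched for DCs by magnetic depletion of other cells. The labels do not say how the leukemia was made, nor whether a hashed sample is 1 animal or several, so p-values measure the spread between these hashed samples, which may be technical. WT has 1 vehicle and 1 panobinostat sample, and every comparison of leukemia with WT rests on these 2.

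After filtering, 18825 cells with 159619040 unique molecular identifiers (UMIs, each 1 captured transcript) remained, 1643 to 6275 per hashed sample. Cells were grouped on genes other than the members, and groups were named from marker genes as pDC-like (2715 cells), cDC1-like (4040), cDC2-like (4405) and mature DC-like (3553). The antibody tags were not used for grouping: median Siglec-H tag counts were highest in pDC-like cells and median CD11c tag counts lowest there. Leukemia vehicle 2 stood apart, with a median count of 87 for its own hashtag against 351 to 767 in the other samples and a median of 12948 UMIs per cell against 5215 to 7480. WT panobinostat held only 41 pDC-like cells. Where leaving out a sample changes a call, this is given beside the result or with the other alternatives at the end.

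A level is given as counts-per-million (CPM, UMIs of the gene over all UMIs) of the summed cells of 1 class in 1 hashed sample. The chemistry counts 1 tag at the 3' end of each transcript, so levels of different genes were compared without a correction for length. Of the 97 features, 4 had no UMI in any class (Cox7b2, Cox8b, Cox8c and the second Atp5o identifier), and Cox4i2 and Ndufa4l2 had fewer than 20 UMIs. Between classes, 90 features passed the minimum mean of 10 UMIs per sum and were tested; Cox7a1 was the other one that did not.

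The promoters of 4 members are printed here because these genes carry the contrasts described below: Cox6a1 is the isoform partner of Cox6a2, Ndufa5 was among the complex I subunits lowest in mature DC-like cells, Sdhaf1 was highest there, and Cox6b2 was lowest in pDC-like cells. Sequences are from RefSeq, build GRCm38.p6, 300 bases each, from 250 before to 50 after the start, printed in the direction of the gene. Capitals mark matches to 3 motifs searched on both strands: GCGC, any 2 bases and GCGC again for the nuclear respiratory factor NRF1, CCGGAAG for ETS factors, to which GABP (also called NRF2) belongs, and AANATGGCG for YY1. All 4 genes lie on the minus strand: Cox6a1 chr5:115348909-115349208, Ndufa5 chr6:24527477-24527776, Sdhaf1 chr7:30322326-30322625 and Cox6b2 chr7:4753045-4753344. The starts used here differ from the GENCODE gene starts for Sdhaf1 and Ndufa5. Their windows lie inside the GENCODE genes, which begin at 30323895 and 24528013.
Cox6a1: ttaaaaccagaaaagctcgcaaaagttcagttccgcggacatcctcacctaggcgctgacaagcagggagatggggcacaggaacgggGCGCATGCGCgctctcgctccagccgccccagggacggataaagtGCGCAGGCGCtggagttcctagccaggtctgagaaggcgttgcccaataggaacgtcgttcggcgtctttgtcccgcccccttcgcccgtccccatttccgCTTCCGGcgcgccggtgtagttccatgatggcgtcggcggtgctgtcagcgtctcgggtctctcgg
Ndufa5: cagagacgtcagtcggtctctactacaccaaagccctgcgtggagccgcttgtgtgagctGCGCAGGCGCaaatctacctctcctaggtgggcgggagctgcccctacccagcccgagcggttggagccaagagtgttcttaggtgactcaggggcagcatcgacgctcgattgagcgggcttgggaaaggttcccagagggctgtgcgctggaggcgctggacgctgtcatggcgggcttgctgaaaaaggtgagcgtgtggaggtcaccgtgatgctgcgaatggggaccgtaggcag
Sdhaf1: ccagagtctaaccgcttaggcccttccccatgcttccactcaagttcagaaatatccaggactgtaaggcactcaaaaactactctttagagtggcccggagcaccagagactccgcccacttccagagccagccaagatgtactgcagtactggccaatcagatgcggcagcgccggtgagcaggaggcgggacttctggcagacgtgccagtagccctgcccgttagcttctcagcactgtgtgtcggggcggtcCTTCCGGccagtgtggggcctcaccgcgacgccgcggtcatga
Cox6b2: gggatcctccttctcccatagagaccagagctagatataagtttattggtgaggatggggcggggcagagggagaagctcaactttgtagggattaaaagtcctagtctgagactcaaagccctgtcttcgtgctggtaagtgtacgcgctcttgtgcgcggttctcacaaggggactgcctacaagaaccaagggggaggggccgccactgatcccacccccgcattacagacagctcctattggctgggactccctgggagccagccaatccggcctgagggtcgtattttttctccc
Cox6a1 held 2 NRF1 matches and 1 ETS match, Ndufa5 held 1 NRF1 match, Sdhaf1 held 1 ETS match, and Cox6b2 held no match to these letters in this window. The promoter table matched 78 members by symbol; Cox6a2, Cox4i1, Uqcrb and Ndufaf6 are among the members it does not list. Of those 78 promoters, 22 (28.2%) held the NRF1 motif, against 1737 of all 27025 promoters (6.43%). The ETS motif stood in 20 of 78 (25.6%) against 9.12% of all promoters, and the YY1 motif in 10 of 78 (12.8%) against 2.51%. These are descriptions of letters in a window, and no binding was measured.

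Cox6a2 was the most abundant member in pDC-like cells and low in the other DC classes. This gene was named for its pattern in earlier results, so its levels between classes are a description, and its folds, although they enter the counts of called members below, support nothing. Cox6a2 lies on chromosome 7 at 128205435-128206387 on the minus strand. In pDC-like cells it stood at 1652 and 1594 CPM in leukemia vehicle 1 and 2, at 1505 and 1512 CPM in leukemia panobinostat 1 and 2, at 1345 CPM in WT vehicle and at 1323 CPM in WT panobinostat. In all 6 samples it was above Cox4i1, the next member by level there, which stood at 1252 to 1504 CPM; in leukemia panobinostat 2 the 2 were close, at 1512 and 1504 CPM. In cDC1-like cells Cox6a2 ranged from 3.88 to 5.31 CPM, in mature DC-like cells from 6.14 to 10.2 CPM and in cDC2-like cells from 10.0 to 27.2 CPM. The pDC-like range does not overlap any other, and cDC2-like and mature DC-like ranges meet at about 10 CPM.

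Cox6a1, on chromosome 5 at 115345642-115348981, was near level across the same cells. It ranged from 271 to 339 CPM in pDC-like, 266 to 336 CPM in cDC1-like, 280 to 324 CPM in cDC2-like and 211 to 246 CPM in mature DC-like cells. The first 3 ranges overlap, and the mature DC-like range lies below them. Cox6a2 therefore made up 84.0% of all Cox6a UMIs in pDC-like cells (23416 of 27867; 81.7% to 85.1% over the 6 samples), against 4.28% in cDC2-like, 3.76% in mature DC-like and 1.48% in cDC1-like cells. Cox6a2 came on top of Cox6a1 in pDC-like cells, whose Cox6a1 level was within the range of the conventional classes.

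**Figure D1:**
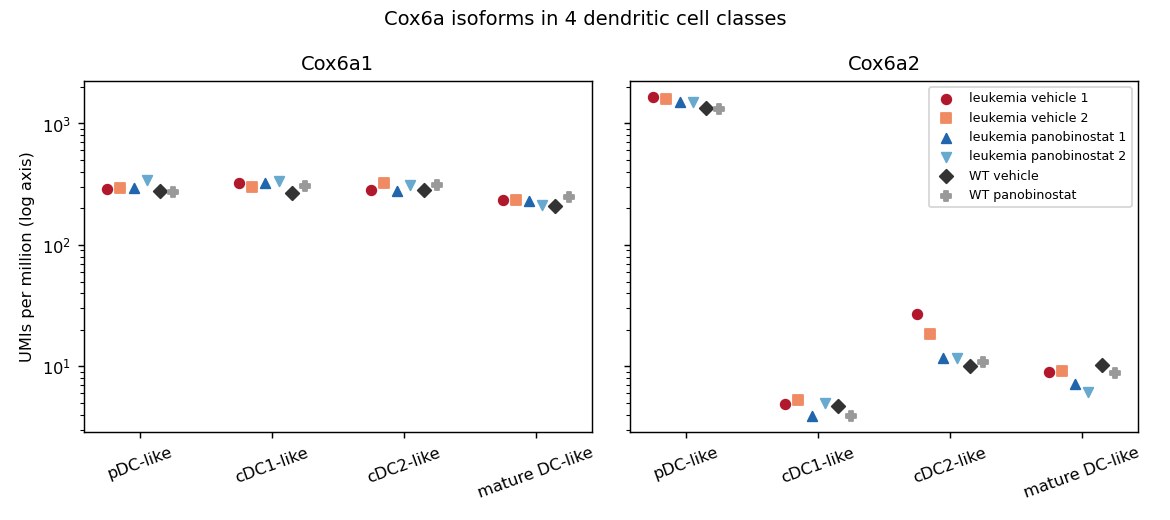
Levels of Cox6a1 (left) and Cox6a2 (right) in CPM, on a log axis, in the 4 DC classes; each point is the summed cells of 1 hashed sample. Cox6a1 lies between 211 and 339 in all classes, while Cox6a2 lies between 1323 and 1652 in pDC-like cells and between 3.88 and 27.2 elsewhere.

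Per cell, 92.2% of pDC-like cells had a Cox6a2 UMI (exact 95% binomial interval 91.2% to 93.2%, counting error only). Cells were also thinned to 2000 UMIs each so that depth was equal, leaving out the 784 cells of all classes below that depth; then 82.8% of pDC-like cells had one, against 0.880% of cDC1-like, 2.03% of cDC2-like and 1.97% of mature DC-like cells. Thinned erythroid-like cells, which should lack the gene, gave 1.05%; their name was not kept under every clustering, and their 2 clusters are led by mitotic genes and by haemoglobin genes. Median depth before thinning was 5152 UMIs in pDC-like and 15249 in erythroid-like cells, where 7.26% had a Cox6a2 UMI. Siglech, the gene of the pDC surface protein Siglec-H, gave a reference for free pDC RNA: Cox6a2 UMIs per Siglech UMI were 0.653 in pDC-like, 0.675 in cDC1-like, 0.755 in mature DC-like, 0.957 in erythroid-like and 1.05 in B cell-like cells, and 0.305 in cDC2-like cells. The thinned share in cDC1-like cells is at or below that of erythroid-like cells. Thinned shares in mature DC-like and cDC2-like cells were higher than in erythroid-like cells (exact 95% binomial intervals 1.52% to 2.5% and 1.63% to 2.5%, against 0.702% to 1.5%, counting error only). With all UMIs the order differed: 4.31% in mature DC-like, 5.33% in cDC2-like and 5.25% in cDC1-like cells, below the 7.26% in erythroid-like cells. Thinning makes depth equal but not the share of free RNA per cell, so neither order tells these classes from background. The source of these UMIs was not tested.

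**Figure D2:**
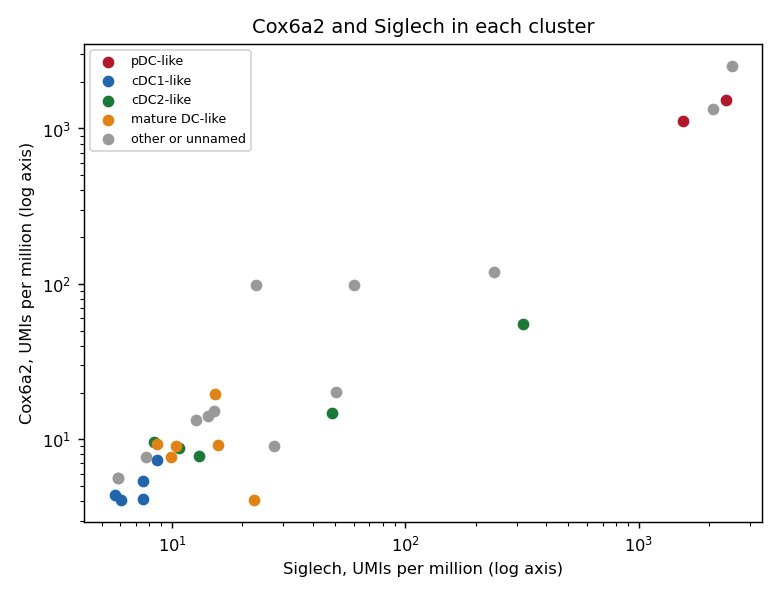
Cox6a2 against Siglech in CPM, both on log axes; each point is 1 of the clusters, pooled over samples and coloured by class. The pDC-like clusters lie at the upper right, the cDC1-like and most mature DC-like clusters near 4 to 10 on the Cox6a2 axis, and 1 cDC2-like cluster at 318 of Siglech and 54.9 of Cox6a2.

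Under panobinostat the Cox6a2 share of Cox6a UMIs in pDC-like cells was 82.8% ± 1.04 (SD, n = 3) against 84.1% ± 1.18 (SD, n = 3) with vehicle. The difference of -1.34 percentage points gave p = 0.3 (two-sided exact permutation test; 3 against 3 cannot go below 0.1). In leukemia the share was 85.1% and 84.5% with vehicle and 83.7% and 81.7% with panobinostat, and in WT 82.8% and 83.0%. The difference ran from -1.99 to -0.774 percentage points on leaving out 1 sample. For the Cox6a2 share of Cox6a UMIs in pDC-like cells, panobinostat minus vehicle, thinned cells gave -0.162 percentage points. Cells in the Siglec-H antibody gate, taken in place of the pDC-like class, gave -16.4 percentage points. That gate also takes in cells of other classes: in WT panobinostat it held 238 cells, where 41 cells were pDC-like. The level of Cox6a2 in pDC-like cells was higher in all 4 leukemia samples than in both WT samples, by 0.21 on the log2 scale (SE 0.057), which did not pass the test over all genes (edgeR quasi-likelihood, adjusted p = 0.0926). In cDC2-like cells Cox6a2 was higher in leukemia vehicle 1 and 2 (27.2 and 18.3 CPM) than in the other 4 samples (10.0 to 11.7 CPM). The share of cDC2-like cells in the Siglech-bearing cluster moved with it, at 24.5% and 11.2% in those 2 samples against 2.69% to 7.92% in the others, and its part in the difference was not tested.

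The 8 genes whose CPM was most like that of Cox6a2 over the 24 sums of 4 classes and 6 samples, among 10049 others, were Emp3, N4bp3, Syne2, Snx18, Ptpn6, Ccdc88c, Slc15a4 and Tcf4, with Spearman's rho from 0.957 to 0.988. Sums of 1 sample share a library, and the order is mostly the order of classes. Tcf4, the transcription factor that defines pDCs, stood at 1790 CPM in pDC-like cells against 15.3, 176 and 46.1 CPM in cDC1-like, cDC2-like and mature DC-like cells. Slc15a4, a lysosomal transporter needed for pDC interferon responses, stood at 86.3 CPM against 11.5, 62.5 and 32.6 CPM. Others of the 8 were less restricted to pDC-like cells. Emp3, first by rho, stood at 800 CPM against 64.0, 262 and 130 CPM in the same order of classes. Ptpn6 stood at 388 CPM against 65.5, 281 and 98.0 CPM. No other member was among these 8.

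The remaining isoform pairs were dominated by the widely expressed form in each DC class. Cox6b2 was the exception in direction: it was lowest in pDC-like cells, with 15 UMIs in all and none in leukemia vehicle 2 and WT panobinostat. Its levels there were 0 to 2.38 CPM, against 4.09 to 9.32 CPM in cDC1-like, 9.91 to 18.9 CPM in cDC2-like and 4.59 to 9.81 CPM in mature DC-like cells. The pDC-like range lies below the other 3. Against cDC1-like cells, Cox6b2 was lower in pDC-like cells by a log2 fold of -2.91 (SE 0.39, adjusted p = 1.5e-07), against cDC2-like cells by -3.82 (SE 0.36, adjusted p = 2.4e-10) and against mature DC-like cells by -3.07 (SE 0.41, adjusted p = 1.7e-07, edgeR with Benjamini-Hochberg adjustment over all genes). Within the largest cluster of each class the fold against mature DC-like cells was -1.80 (SE 0.53), and the levels of 0 to 2.44 and 1.09 to 5.27 CPM overlap. It was also lower in cDC1-like than in cDC2-like cells (-0.91, SE 0.19, adjusted p = 0.00016). Cox6b1 still made up 97.2% or more of Cox6b UMIs in each DC class.

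Cox7a1 gave 0.122% of Cox7a UMIs in pDC-like and 0.848% in mature DC-like cells, from 8 and 43 UMIs, and the rest was Cox7a2. Among the 3 genes of the c-ring of ATP synthase, Atp5g2 led in each class, with 58.4% of Atp5g UMIs in mature DC-like cells, 57.9% in cDC2-like, 53.4% in pDC-like and 48.1% in cDC1-like cells. Atp5g1 and Atp5g3 took a larger share in cDC1-like cells: Atp5g1 stood at 339 to 553 CPM in cDC1-like cells against 303 to 361 CPM in cDC2-like cells, and the ranges overlap in the WT vehicle sample. Cox4i2, Ndufa4l2, Cox7b2, Cox8b and Cox8c were at or near 0, so that Cox4i1, Ndufa4, Cox7b and Cox8a stood alone. Cox4i1 ranged over 942 to 1504 CPM in the DC classes, and its log2 folds between classes of -0.04 to 0.37 were all under the size limit.

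The summed level of all members was highest in pDC-like and lowest in mature DC-like cells. It was 25346 to 28004 CPM in pDC-like, 21758 to 25473 CPM in cDC1-like, 21781 to 24757 CPM in cDC2-like and 17257 to 18711 CPM in mature DC-like cells. The mature DC-like range lies below all others, the 2 conventional ranges overlap, and the top of the cDC1-like range meets the bottom of the pDC-like range. Cox6a2 itself adds 1323 to 1652 CPM to the pDC-like sums, and in some samples the order against cDC1-like cells leans on it. In leukemia vehicle 1 the sums were 26044 CPM in pDC-like and 25171 CPM in cDC1-like cells. In WT panobinostat they were 25487 and 24314 CPM. The gap in each of these samples is smaller than what Cox6a2 adds there. It is larger than that in the other samples. These had 26789 against 24490 CPM in leukemia vehicle 2 and 25346 against 21758 CPM in WT vehicle. Leukemia panobinostat 1 and 2 had 26879 against 24718 CPM and 28004 against 25473 CPM. The highest members in each complex over the 4 classes were Ndufa13, Ndufa7 and Ndufa2 (393, 334 and 330 CPM) for complex I, Sdhb, Sdha and Sdhd (115, 67.1 and 55.5 CPM) for complex II, Uqcrh, Uqcrb and Uqcrq (820, 352 and 317 CPM) for complex III, Cox4i1, Cox8a and Cox7c (1092, 890 and 728 CPM) for complex IV and Atp5e, Atp5h and Atp5l (1099, 677 and 670 CPM) for complex V.

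Mitochondria-encoded subunits followed the nuclear ones in part: they were also highest in pDC-like cells, but mature DC-like cells did not lie below the conventional classes. The 13 mitochondria-encoded genes summed to 34937 to 39256 CPM in pDC-like cells, against 19648 to 22076 CPM in cDC1-like, 20282 to 25184 CPM in cDC2-like and 20133 to 23165 CPM in mature DC-like cells. The pDC-like range lies above the other 3, which overlap; outside the DC classes, B cell-like (35873 to 45522 CPM) and endothelial-like cells (43593 to 47159 CPM) reached or passed it. By the test described next, pDC-like cells were higher in 5 of 13 against cDC1-like, 9 of 13 against cDC2-like and 6 of 13 against mature DC-like cells, where 24%, 20.4% and 28% of all genes were higher, and lower in none. The filter on mitochondrial UMIs, at most 10% per cell, limits these values from above in all classes.

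**Figure D3:**
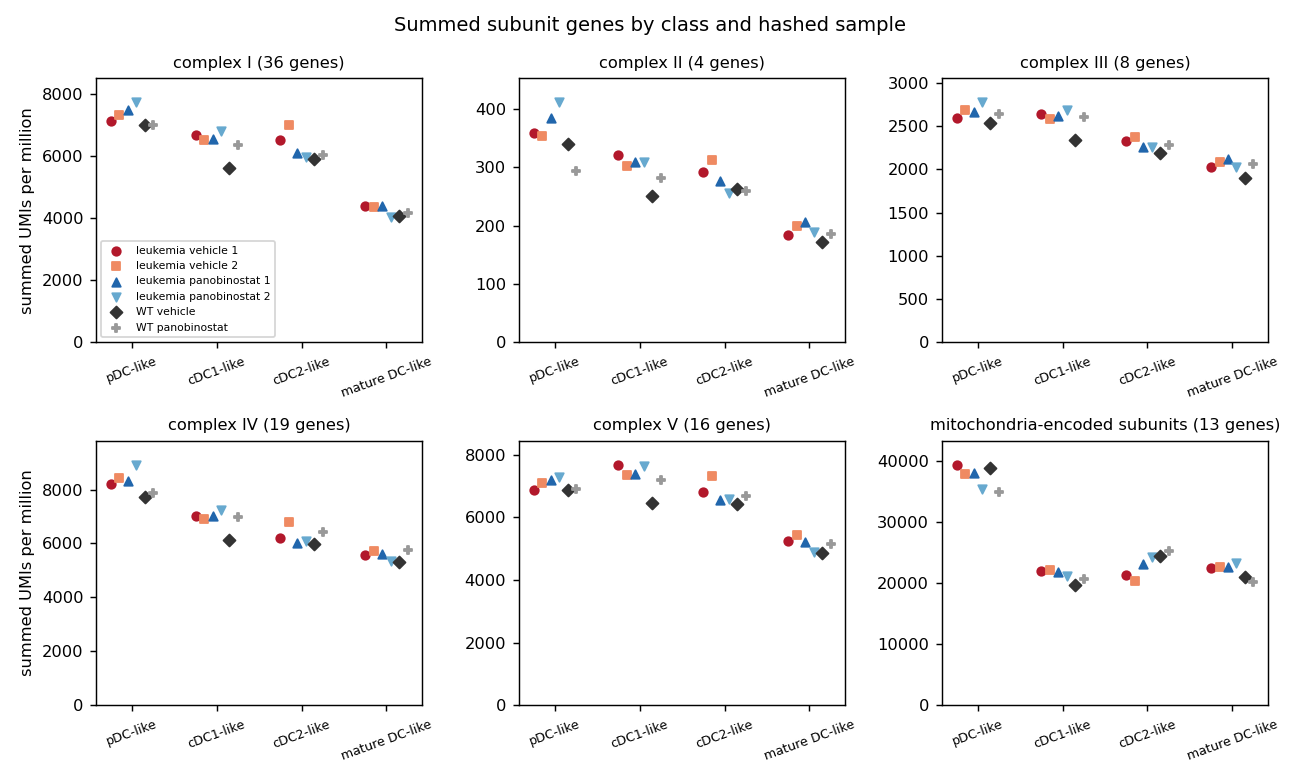
Summed CPM of the subunit genes of each complex, assembly factors left out, and of the 13 mitochondria-encoded subunits, by class; each point is 1 hashed sample and axes start at 0. Complex I falls from 6990 to 7725 in pDC-like to 4024 to 4401 in mature DC-like cells, while mitochondria-encoded genes are highest in pDC-like cells among these 4 classes.

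Classes were compared on the 24 sums by edgeR's quasi-likelihood test, blocked on hashed sample. A gene was called at an adjusted p under 0.05 and a change of 1.5-fold or more. The scale of these folds matters. With TMM scaling, which sets the typical gene near 0, the median log2 fold of all 10050 genes was 0.02 for pDC-like over cDC1-like cells; with total UMIs as the scale it was 0.37, and for mature DC-like over cDC2-like cells it moved from -0.05 to -0.38. Members moved along with all genes, so their medians are given less the median of all genes, which hardly depended on the scale: -0.31 under TMM and -0.30 under total UMIs for pDC-like over cDC1-like cells.

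Mature DC-like cells were lower than cDC1-like cells in 39 of 90 members and higher in 4, where 27.8% of all genes tested were lower and 26.2% higher. The members' median log2 fold was -0.55, against -0.03 for all genes. Complex I had 19 of 36 subunits lower and none higher, complex V 6 of 15 lower, complex III 3 of 8, complex II 2 of 4 and complex IV 1 of 13. Complex I assembly factors had 6 of 8 lower and a median of -0.99. Assembly factors insert and mature subunits without being part of the finished complex. Without leukemia vehicle 2 the count lower was 42.

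Ndufb11, a complex I subunit of the membrane arm, showed the step between these classes in each sample: 368 to 411 CPM in cDC1-like against 163 to 177 CPM in mature DC-like cells, a log2 fold of -1.17 (SE 0.07, adjusted p = 3e-15). Ndufaf6, an assembly factor of complex I, stood at 16.2 to 26.7 CPM in cDC1-like, 1.16 to 5.51 CPM in mature DC-like, 4.59 to 9.53 CPM in pDC-like and 6.53 to 12.2 CPM in cDC2-like cells. All 6 cDC1-like samples lie above the other classes. Log2 folds were 1.57 over cDC2-like cells (SE 0.13), -2.28 for mature DC-like over cDC1-like cells (SE 0.16) and -1.87 for pDC-like over cDC1-like cells (SE 0.15), each past the test. Ndufaf4 (-1.16), Ndufb2 (-1.11), Ndufa5 (-1.10), Ndufs8 (-1.09), Ndufab1 (-1.07), Ndufa12 (-1.06), Ndufaf7 (-1.05), Ndufaf8 (-1.03) and Uqcrb (-1.03) were the next largest that were lower in mature DC-like than in cDC1-like cells.

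Against cDC2-like cells, mature DC-like cells were lower in 11 members and higher in 3, where 24.8% of all genes were lower and 22.2% higher. The members' median less that of all genes was -0.13. With total UMIs as the scale 35 members were lower, and within the largest cluster of each class 19 were. Complex I had 4 of 36 subunits lower, a share below the 24.8% of all genes, and its assembly factors had 4 of 8 lower. These were Ndufaf7 (-1.49), Ndufaf4 (-1.43), Ndufa5 (-0.92), Ndufs7 (-0.77), Ndufaf6 (-0.71), Ndufaf1 (-0.71), Ndufa8 (-0.63) and Ndufs3 (-0.59). Complexes III and IV had medians of 0.07 and 0.03 in this contrast.

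Complex II assembly split in mature DC-like cells. Sdhaf1, which helps to insert the iron-sulfur clusters of Sdhb, stood at 265 to 307 CPM in mature DC-like cells, against 23.0 to 58.2 CPM in pDC-like, 26.8 to 36.9 CPM in cDC1-like and 67.5 to 83.1 CPM in cDC2-like cells. All 6 mature DC-like samples lie far above the rest, and the lowest pDC-like value is that of WT panobinostat. The log2 fold over cDC1-like cells was 3.14 (SE 0.09, adjusted p = 1.6e-21), over cDC2-like cells 2.27 (SE 0.09, adjusted p = 1.6e-18), and pDC-like cells were lower than mature DC-like cells by a log2 fold of -2.85 (SE 0.10, adjusted p = 9.2e-20). Among the members Sdhaf1 ranked 18 by level in mature DC-like cells and 69 to 77 in the other DC classes.

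Sdhaf2, which attaches the flavin to Sdha, was also higher in mature DC-like cells, at 32.1 to 51.3 CPM against 18.2 to 24.2 CPM in cDC1-like cells (log2 fold 1.07, SE 0.10, adjusted p = 1.2e-10). Sdhaf3 (-0.85) and Sdhaf4 (-1.01), the other 2 complex II assembly factors, were lower than in cDC1-like cells. The subunit Sdhb, whose clusters Sdhaf1 serves, was lower as well: 57.4 to 74.9 CPM in mature DC-like against 97.9 to 144 CPM in cDC1-like cells (-0.91, SE 0.08, adjusted p = 1.9e-11). Sdhaf1 and Sdhb thus stood in opposite order in these classes. Cox5a, a core-binding subunit of complex IV, was not lower in mature DC-like cells: pDC-like cells were below them by a log2 fold of -0.73 (SE 0.07, adjusted p = 1e-10), at 335 to 432 against 450 to 526 CPM, and those ranges do not overlap. Atp5s, coupling factor B of ATP synthase, was called higher in mature DC-like cells over both conventional classes (0.75 and 0.79), at levels of only 2.23 to 7.59 CPM that overlap those of cDC1-like and cDC2-like cells.

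pDC-like cells were lower than cDC1-like cells in 18 members and higher in 2, Cox6a2 and Atp5s, where 23.9% of all genes were lower and 24% higher. The share of members called lower was thus below the share of all genes, although the members' median, less that of all genes, was -0.31. Uqcrb, a complex III subunit, was the lowest of the well-measured members, at 336 to 383 CPM in pDC-like against 437 to 589 CPM in cDC1-like cells (-1.01, SE 0.06, adjusted p = 3.2e-15). It was followed by Atp5g3 (-0.82), Ndufc2 (-0.75), Ndufs4 (-0.72), Cox7c (-0.71), Ndufb8 (-0.66), Cox7b (-0.65), Sdhd (-0.64) and Uqcrfs1 (-0.63). Leaving out 1 sample gave 1 to 3 higher and 17 to 20 lower. With total UMIs as the scale 3 were lower and 12 higher, so the direction of the smaller differences depends on the scale. With another hashtag call, on the ratio of the top tag to the next, 9 were lower. Cells were clustered anew under that call, so the classes changed as well. Clusters of 729 and 300 cells closest to cDC1-like, the second of them cycling, were left unnamed.

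Against cDC2-like cells, pDC-like cells were higher in 6 members and lower in 1, Cox6b2, against 20.4% and 20.9% of all genes; leaving out 1 sample gave 4 to 7 higher and 1 to 2 lower. The members' median less that of all genes was 0.03. Besides Cox6a2 and Atp5s the higher ones were Ndufs3 (0.69), Ndufs8 (0.64), Sdhb (0.62) and Ndufv3 (0.60). Ndufs3 and Ndufs8 belong to the peripheral and connecting parts of complex I and Sdhb carries the iron-sulfur clusters of complex II. Ndufs8 stood at 141 to 179 CPM in pDC-like against 76.7 to 104 CPM in cDC2-like cells, and the ranges do not overlap.

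Against mature DC-like cells, pDC-like cells were higher in 21 members and lower in 4, against 28% and 27.6% of all genes. The members' median less that of all genes was 0.18. Complex I gave 13 of the 21, out of 36 subunits tested, led by Ndufa5 (1.34), Ndufs3 (1.28), Ndufs7 (1.24), Ndufs8 (1.19) and Ndufv1 (0.98). Ndufa5 stood at 110 to 170 CPM in pDC-like and 41.3 to 48.2 CPM in mature DC-like cells, with cDC1-like (76.4 to 118 CPM) and cDC2-like cells (101 to 114 CPM) between. Ndufaf4 (1.52), Sdhaf3 (1.15), Ndufaf7 (1.08), Ndufaf8 (0.97), Sdhb (0.95) and Uqcr11 (0.93) followed, and the 4 lower were Cox6b2, Sdhaf1, Sdhaf2 (-1.06) and Cox5a. No ATP synthase gene was called in this contrast. With total UMIs as the scale 48 members were higher.

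Against cDC2-like cells, cDC1-like cells were higher in 13 members and lower in 3, against 15.4% and 18.4% of all genes, so the share called higher was near that of all genes. The members' median less that of all genes was 0.36, with medians above 0 in each complex and -0.03 for complex II assembly. Leaving out 1 sample gave 12 to 17 higher. Uqcrb led among the complex subunits (544 ± 57.3 against 309 ± 20.4 CPM, SD, n = 6; log2 fold 1.1, SE 0.05, adjusted p = 3.7e-16), followed by Atp5g3 (0.93), Ndufb11 (0.89), Cox7b (0.85), Ndufa12 (0.84), Atp5g1 (0.76), Ndufs4 (0.75) and Cox7c (0.72). The 3 lower were Cox6b2, Sdhaf1 (-0.87) and Cox6a2, which is low in both classes. With total UMIs as the scale 4 were higher.

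**Figure D4:**
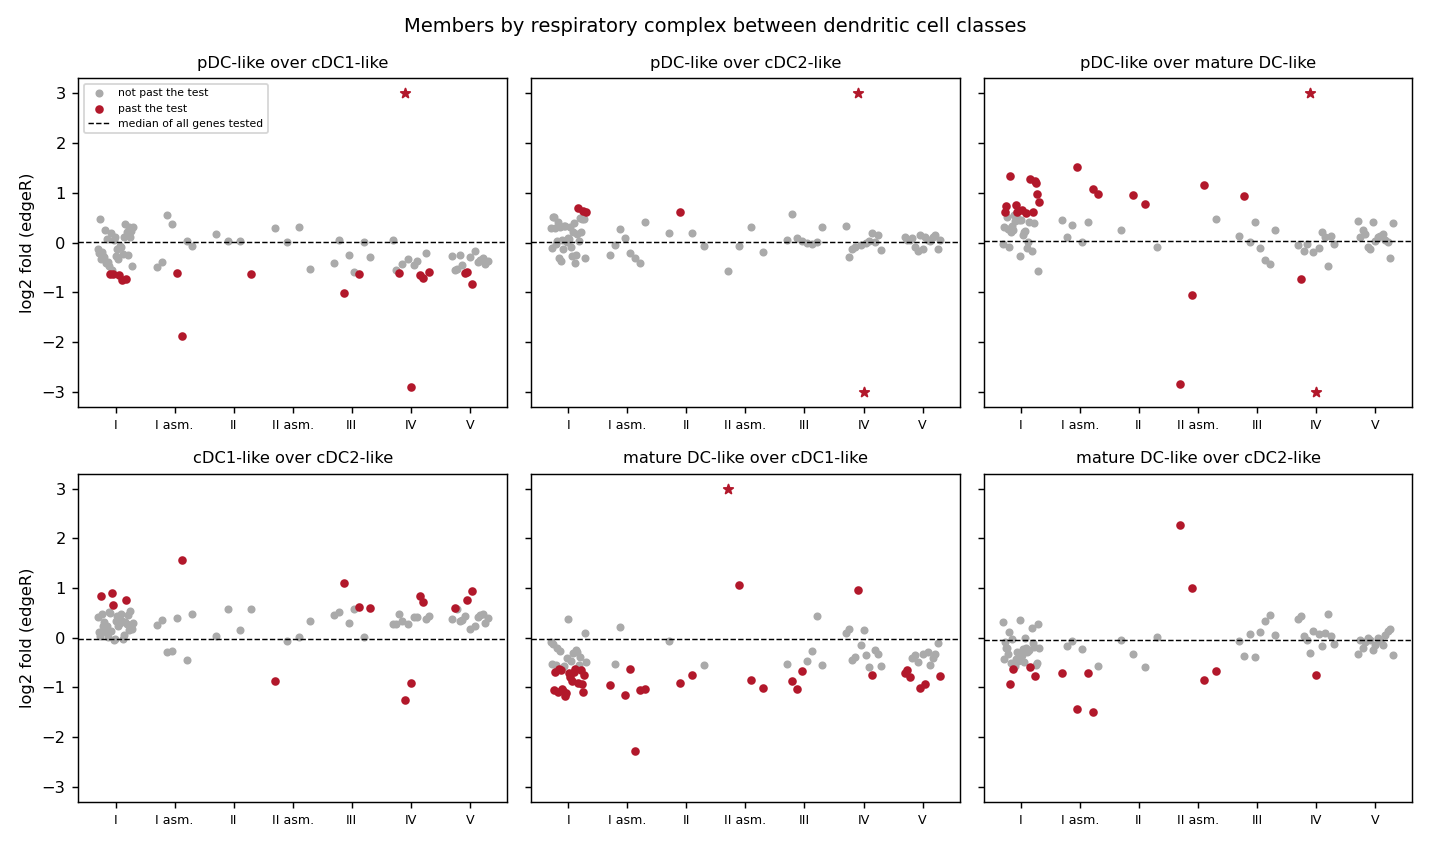
Log2 folds of the tested members, by complex (asm., assembly factors), in 6 contrasts between classes; red points passed an adjusted p under 0.05 with 1.5-fold or more, grey ones did not, stars are called members beyond 3 drawn at the edge, and the dashed line is the median of all genes. In mature DC-like over cDC1-like cells most points lie below the line, with Sdhaf1 the star above it; Atp5s and Cox7a2l are not drawn.

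The other genes of the pathway were read from lists beside the members. Of 16 genes of the citric acid cycle and pyruvate dehydrogenase, 7 were lower in mature DC-like than in cDC1-like cells and 7 than in cDC2-like cells, with none higher, where 27.8% and 24.8% of all genes were lower. Among them were Fh1 (fumarase, -1.80 and -1.71) and Idh3a (-1.61 and -1.50). Of 5 electron carriers, Cycs, which encodes cytochrome c, was lower in mature DC-like (-1.66) and in pDC-like cells (-1.89) than in cDC1-like cells, while Etfdh, which passes electrons from fat oxidation to ubiquinone, was higher in mature DC-like cells over both conventional classes (2.21 and 1.77). Of 27 tested assembly factors with other names, 8 were lower in mature DC-like than in cDC1-like cells and none higher, a share near the 27.8% of all genes; Sco2, a copper chaperone of complex IV, gave -2.32. Against mature DC-like cells, pDC-like cells were higher in 12 of 27 and lower in 1 (Tmem70), against 28% and 27.6% of all genes. The 12 cell cycle genes moved with these contrasts: all 12 were lower in pDC-like than in cDC1-like and cDC2-like cells, and 11 of 12 were lower in mature DC-like than in either. Without the cycling clusters, counts of members called between classes stayed within 1.5 times of those above, except for 1 in place of 2 higher in pDC-like over cDC1-like and 3 in place of 1 lower in pDC-like over cDC2-like cells.

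Few members passed the test for panobinostat, in fits of 6 samples that limit the size of change they can show. In cDC1-like cells 2 of 90 rose, against 3.41% of all genes, and none fell, against 1.18%. Ndufb7, a complex I subunit, stood at 271, 258 and 220 CPM in leukemia vehicle 1, leukemia vehicle 2 and WT vehicle, and at 305, 301 and 279 CPM in leukemia panobinostat 1 and 2 and WT panobinostat. The groups do not overlap, and the log2 fold was 0.29 (SE 0.06, adjusted p = 0.0167, edgeR). Ndufa5 gave 0.28 (SE 0.07, adjusted p = 0.0338), with 76.4 to 102 CPM under vehicle and 94.1 to 118 CPM under panobinostat, and its groups overlap. Log2 folds in cDC1-like cells were above 0 for 84 of 90 members, with a median of 0.12 against -0.002 for all genes. Neither call held without leukemia vehicle 1, without leukemia vehicle 2, without leukemia panobinostat 2 or without either WT sample, nor within the largest cDC1-like cluster, where no member rose and the median was 0.04. Without leukemia panobinostat 1 both held and 8 members rose.

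Cell cycle genes moved with this result. All 12 rose under panobinostat in cDC1-like cells, with a median log2 fold of 0.62, and the cycling cluster with the highest member sum of the class (32552 CPM) made up 4.83%, 10.6% and 13.8% of cDC1-like cells in the panobinostat samples against 2.65%, 3.70% and 3.88% in the vehicle samples. The other cycling cluster made up 12.5%, 15.5% and 12.8% against 13.8%, 15.9% and 5.76%, so it was higher under panobinostat in WT and not in leukemia. Without the cycling clusters 2 members still rose and the members' median was 0.11. Cycs rose as well (0.42).

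In pDC-like, cDC2-like and mature DC-like cells no member passed the test under panobinostat with edgeR, and none with DESeq2; 0.156%, 0.111% and 0.191% of all genes rose there and 0.0334%, 0.0202% and 0.0674% fell. In pDC-like cells 89 members were tested. At an unadjusted p under 0.05 there were 5, 1 and 5 members. The 3 smallest p in pDC-like cells were those of Cox7c (log2 fold 0.21, SE 0.07, adjusted p = 0.459), Cox6c (0.18, SE 0.06, adjusted p = 0.513) and Uqcrc1 (0.29, SE 0.12, adjusted p = 0.675). In cDC2-like cells they were Cox6a2 (-0.59), Uqcrh (0.15) and Ndufa9 (-0.23), and in mature DC-like cells Ndufv2 (0.36), Uqcrh (0.19) and Atp5s (-1.04), with adjusted p of 0.235 or more. Tests of a difference in the panobinostat effect between leukemia and WT, and between any 2 classes, called no member; at an unadjusted p under 0.05 they gave 1 to 6 members each. The shares of all genes called higher and lower by the first test were 0.1% and 0.145% in pDC-like cells, 0.0561% and 0.0225% in mature DC-like cells, 0.0202% and 0.0606% in cDC2-like cells and 0.098% and 0.118% in cDC1-like cells. Between classes the share was 0.00995% higher for cDC1-like less cDC2-like cells, and 0 in the other directions and pairs.

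**Figure D5:**
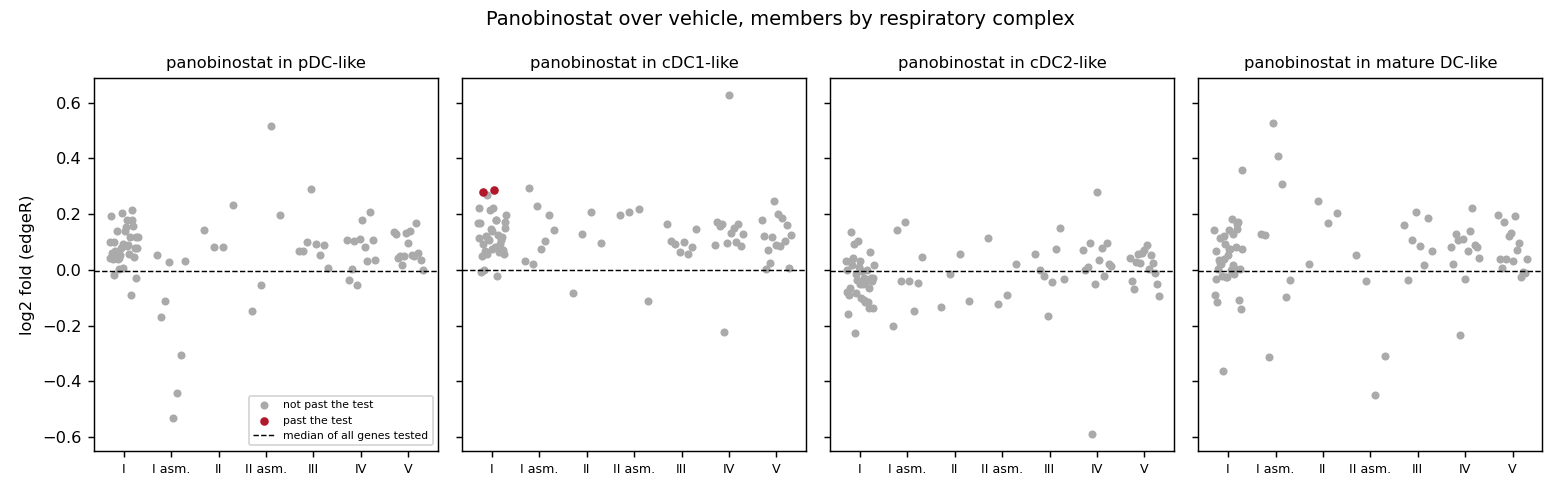
Log2 folds of panobinostat over vehicle for the tested members, by complex, in each DC class; red points passed an adjusted p under 0.05 and the dashed line is the median of all genes. In cDC1-like cells 84 of 90 members lie above 0 and the 2 called ones are complex I subunits; Atp5s and Cox7a2l are not drawn.

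Between leukemia and WT, called members were found in cDC1-like cells alone of the 4 classes, 2 higher and 3 lower, against 4.15% and 5.75% of all genes there. The count higher in leukemia was 24 with total UMIs as the scale, 16 with the ratio hashtag call and 0 with DESeq2 or thinned cells, and the first 2 of these settings also gave 1 higher in pDC-like cells. Whether the effect differs between classes was not tested. The sums, which also served for panobinostat, differed in depth. They held 3766912 to 17007932 UMIs in cDC1-like cells and 217680 to 9689222 UMIs in the other DC classes. Cox7a2l, known as a factor for supercomplexes of complexes III and IV, lies on chromosome 17 at 83501918-83517330. Whether it acts so in these C57BL/6 mice was not measured. Cox7a2l stood at 657 CPM in WT vehicle and 557 CPM in WT panobinostat, at 476 and 497 CPM in leukemia vehicle 1 and 2, and at 445 and 415 CPM in leukemia panobinostat 1 and 2. All 4 leukemia samples are below both WT samples, and the log2 fold was -0.53 (SE 0.06, adjusted p = 2.6e-05, edgeR). The same order held within the largest cDC1-like cluster (445 to 527 against 568 and 654 CPM; -0.46, SE 0.06, adjusted p = 6.4e-06), and the call held without any 1 sample. In the other classes Cox7a2l gave -0.14 in cDC2-like, -0.19 in mature DC-like and -0.07 in pDC-like cells, none past the test.

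Uqcrh, the hinge protein of complex III, was likewise lower in leukemia, at 626 to 667 CPM against 738 and 742 CPM in WT (-0.32, SE 0.06, adjusted p = 0.0017). This call also held in the largest cluster (-0.29, SE 0.06, adjusted p = 0.0013) and without any 1 sample. Sdhaf1 was lower (-0.38, adjusted p = 0.0237), at 26.8 to 35.5 CPM against 36.9 and 36.6 CPM. Ndufaf6 (0.42, adjusted p = 0.0194) and Atp5g1 (0.25, adjusted p = 0.0386) were higher. These 3 calls were not made within the largest cluster, and none of the 3 held without WT vehicle or without leukemia vehicle 1.

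The makeup of the cDC1-like class moved with disease. The cluster with the lowest member sum (18966 CPM) held 43.4% and 24.3% of cDC1-like cells in WT vehicle and WT panobinostat, against 10.6% to 17.2% in leukemia, and the largest cluster (24095 CPM) held 28.3% and 27.7% in WT against 44.9% to 57.8%. The summed members in cDC1-like cells were 21758 CPM in WT vehicle, below the other 5 samples (24314 to 25473 CPM); within the largest cluster the value was 22705 CPM against 24052 to 25084 CPM. In pDC-like, cDC2-like and mature DC-like cells no member was called between leukemia and WT by edgeR or DESeq2, where 0.29%, 0.0404% and 1.07% of all genes were higher, 0.624%, 0.111% and 0.382% were lower, and 3, 2 and 4 members had an unadjusted p under 0.05. The smallest p in cDC2-like cells were those of Ndufs3 (log2 fold 0.34, adjusted p = 0.246) and Cox6a2 (0.78, adjusted p = 0.306), and in mature DC-like cells those of Ndufs3 (-0.37), Ndufa9 (0.38) and Cox7a2l.

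Members also varied within classes. Across cDC1-like clusters their sum ran from 18966 to 32552 CPM and across mature DC-like clusters from 15285 to 24913 CPM, wider than the spread between samples. The clusters had been made without the members. Of these mature DC-like clusters, 2 are small or shallow, with 69 cells, and with 238 cells at a median of 2455 UMIs. The largest mature DC-like cluster (1172 cells) had the lowest sum of the named clusters, with complex I subunits at 3373 CPM against 6397 CPM in the largest cDC1-like and 7217 CPM in the largest pDC-like cluster.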

How the data were processed

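Gene, hashtag and antibody UMI counts of 1 pooled capture were deposited as a filtered 10x matrix; the authors used Cell Ranger 3.1.0 and Seurat 3.1.0 with GRCm38, per the submitters' processing notes. Whole counts per cell were used as deposited. Hashtag names were read as D5W for vehicle and LBH for panobinostat. Hashtags were called from a negative binomial fit to the lowest k-means cluster, and cells with exactly 1 positive tag, at least 500 genes and at most 10% mitochondrial UMIs were kept. Simulated doublets marked 2241 of 21066 such cells, which were removed. Cells were clustered (Leiden, resolution 1) without the members, mitochondria-encoded genes and pathway lists, and classes were named from fixed markers; rebuilt names may differ from the study's. Members and lists were chosen with earlier results of these data known.

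UMIs were summed per hashed sample and class (sums of 20 cells or more) and tested with edgeR 4.0.16 (quasi-likelihood, TMM, genes with a mean of 10 UMIs or more) in R 4.3.3, with Benjamini-Hochberg adjustment over all genes tested: classes with the hashed sample as a block, conditions within a class with disease and treatment as terms. The procedure was tested on simulated data. CPM was computed here from those sums. Totals were 12532379 to 43908553 UMIs per hashed sample, and intervals cover counting error only. Named members were the isoform pairs, up to 12 called members of largest change per class contrast, up to 10 called members, or the 3 of smallest p, per condition, and the 3 of highest level per complex. Alternatives were DESeq2 1.42.0, total UMIs in place of TMM, no filter, another hashtag call, thinned cells, other clustering, antibody gates and leaving out each sample; the largest cluster of each class and interaction terms were added after seeing the data.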

Additional observations from a re-analysis of the deposited data

How the results depend on the processing

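Over 70 results for single members, 889 of 971 values under alternatives kept direction and side of the threshold, 82 lost the call and none reversed. Counts of called members moved most with the scale. With total UMIs in place of TMM, 4 members were higher in cDC1-like over cDC2-like, 12 higher and 3 lower in pDC-like over cDC1-like, 48 higher in pDC-like over mature DC-like and 35 lower in mature DC-like over cDC2-like cells; 24 were higher in leukemia in cDC1-like and 1 in pDC-like cells, and 1 rose under panobinostat in cDC1-like cells. DESeq2 called 3 higher and 2 lower in pDC-like over cDC2-like cells, 0 higher in leukemia and 1 risen under panobinostat in cDC1-like cells. Without a filter on low counts 3 were lower in pDC-like over cDC2-like cells, 4 and 1 higher in leukemia in cDC1-like and cDC2-like cells, and 5 rose under panobinostat in cDC1-like cells. The ratio hashtag call gave 9 lower in pDC-like over cDC1-like, 3 lower in pDC-like over cDC2-like, 16 and 1 higher in leukemia in cDC1-like and pDC-like cells, and 0 risen under panobinostat. That call also changed the classes. It left unnamed clusters of 729 and 300 cells closest to cDC1-like and of 739 and 539 cells closest to cDC2-like. Thinned cells gave 1 higher in pDC-like over cDC1-like cells, 0 higher in leukemia and 0 risen under panobinostat. Without cycling clusters 1 was higher in pDC-like over cDC1-like, 3 lower in pDC-like over cDC2-like and 7 higher in leukemia in cDC1-like cells. Leiden resolution 0.5 gave 2 lower in pDC-like over cDC2-like cells. The largest cluster of each class, chosen after seeing the data, gave 19 lower in mature DC-like over cDC2-like, 1 higher in pDC-like over cDC1-like, 3 lower in pDC-like over cDC2-like cells and 0 risen under panobinostat. Antibody gates in place of classes gave 1 contrast, the Siglec-H gate over the CD11c gate, with 1 member higher and 1 lower. The Cox6a2 share in the Siglec-H gate, which is not limited to pDC-like cells, was 73.7%. The cause of these moves was not tested.

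Leaving out 1 hashed sample gave 12 to 17 higher and 3 lower in cDC1-like over cDC2-like, 3 to 4 and 38 to 42 in mature DC-like over cDC1-like, 2 to 3 and 9 to 12 in mature DC-like over cDC2-like, 1 to 3 and 17 to 20 in pDC-like over cDC1-like, 4 to 7 and 1 to 2 in pDC-like over cDC2-like and 18 to 23 and 4 to 5 in pDC-like over mature DC-like cells. In cDC1-like cells it gave 0 to 7 higher and 2 to 4 lower in leukemia, and 0 to 8 risen under panobinostat. The Cox6a2 share ran from 83.3% to 84.4%, and the Cox6a2 share of Cox6a UMIs in pDC-like cells, panobinostat minus vehicle, from -1.99 to -0.774 percentage points. Other settings gave -0.162 (thinned), -1.63 (ratio call) and -1.61 (resolution 0.5) for that difference. The Siglec-H gate, which is not limited to pDC-like cells, gave -16.4. The leukemia samples alone gave 0 risen under panobinostat in cDC1-like cells. Replicate numbers 1 and 2 are shared by the leukemia groups only and are not said to pair animals; with the number as a replicate block 1 member rose in cDC1-like cells, and no other count changed. WT has 1 sample per treatment, and low counts limit Cox6b2, Cox7a1 and Atp5s.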

Other observations

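Several other clusters, 1 of them within the cDC2-like class, also held Cox6a2. The highest level was 2534 CPM, in an unnamed cluster of 10 cells whose leading genes held megakaryocyte markers. A shallow unnamed cluster of 192 cells, with a median of 1537.5 UMIs, stood at 98.8 CPM, and 8 acinar-like cells at 120 CPM. A cluster of 161 cells with pDC markers, led by the interferon-response genes Ifi44 and Ifit2 and left unnamed, stood at 1328 CPM of Cox6a2 and 2078 CPM of Siglech. The cDC2-like cluster with 341 cells, at 1104 CPM of Tcf4 and 318 CPM of Siglech, stood at 54.9 CPM of Cox6a2. An unnamed cluster of 157 cells stood at 97.9 CPM of Cox6a2 with only 22.9 CPM of Siglech. This cluster had 7 raised NK cell markers, and its leading genes also held the progenitor markers Mpo, Prtn3 and Ctsg. In it 10 cells had 3 or more Cox6a2 UMIs, up to 29, of which 9 had an Nkg7 UMI, 8 a Tcf4 UMI, 7 a Ly6d UMI and 1 a Siglech UMI. Among 2190 pDC-like cells with 3 or more Cox6a2 UMIs, 2188 had a Siglech UMI and 2 an Nkg7 UMI. These cells were chosen after their values were seen.

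The erythroid-like name was not stable: with resolution 0.5 a cluster of 1830 such cells, and with the ratio hashtag call one of 1102, led by Gm15915, Cd200r3 and Gfi1b, was left unnamed because its leading genes held more markers of another class. That class was basophils or mast cells, by Hdc in both clusters and also by Gata2 with the ratio call. Erythroid-like cells had the highest summed member level of the named classes, at 35494 CPM pooled over samples, followed by megakaryocyte-like cells (31659 CPM, 40 cells). Cox7a1 was highest in endothelial-like cells, at 27.0 CPM from 7 UMIs. Most erythroid-like cells came from leukemia vehicle 2 (1653 of 2797), so these values describe few samples and were not tested.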
